A study of Mus musculus with 17 samples.

Results

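The 10 genes described here carry the class I pathway of antigen presentation in mouse muscle. They are the rows of the expression table whose symbol is H2-K1, H2-D1, B2m, Tap1, Tap2, Tapbp, Psmb8, Psmb9, Psmb10 or Nlrc5. All 10 were found among 36172 gene rows, and all 10 passed the filter on low counts that left 13965 genes for testing. RNA-seq was done on the extensor digitorum longus (EDL), a fast muscle of the hind limb, from 17 old mice. The Hand2 group was 7 mice given a vector carrying Hand2, which encodes a transcription factor that sympathetic neurons depend on. The EV group was 10 mice given the empty vector. The Hand2 group held 4 females (3 aged 22 months and 1 aged 23 months) and 3 males (1 aged 22 months and 2 aged 23 months). The EV group held 5 females (2 aged 22 months and 3 aged 23 months) and 5 males (1 aged 22 months and 4 aged 23 months). The series asks, by its title, how Hand2 acts through sympathetic neurons on muscle loss in ageing. The labels name neither the vector type and its promoter nor the route, the dose or the strain, so which cells carried the vector is not known from them. All comparisons are among vector-treated old animals.

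Class I molecules show fragments of a cell's own proteins at its surface, where CD8 T cells read them. The proteasome cuts the proteins, the TAP transporter moves the peptides into the endoplasmic reticulum, and the peptide-loading complex fits them into a heavy chain paired with beta-2 microglobulin. Interferons switch many of these genes on, and exchange the constitutive catalytic subunits of newly made proteasomes for the immune ones. Nlrc5 is the transactivator of class I genes. Resting skeletal muscle fibres are known for a low level of class I, which is raised in human inflammatory muscle disease.

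Of the genes, 7 lie on chromosome 17 in the mm10 build of the table, 2 on chromosome 8 and 1 on chromosome 2. Psmb9, Tap1, Psmb8 and Tap2 are packed into chr17:34182099-34216321, a stretch of 34223 bases. Psmb9 (minus strand) and Tap1 (plus strand) start 225 bases apart and run in opposite directions. H2-K1 (chr17:33996012-34000333, minus strand) and H2-D1 (chr17:35263094-35267497, plus strand) lie to either side of that cluster, with Tapbp at chr17:33919478-33929290 on the plus strand. B2m is at chr2:122147687-122153082 (plus strand), Psmb10 at chr8:105935728-105938392 (minus strand) and Nlrc5 at chr8:94472763-94527272 (plus strand). RefSeq promoter windows (GRCm38.p6, the same assembly as mm10, 250 bases before to 50 after each start) were given for 8 of the 10 genes. The stretches just before 4 of the starts, and the one shared by Psmb9 and Tap1, are printed 5′ to 3′ on the gene's strand. Capitals mark matches to 3 motifs that interferon and NF-kappa-B factors are known to bind. These are the interferon-stimulated response element core (GAAA, any 2 bases, then GAAA), the gamma-activated site (TTC, any 3 bases, then GAA) and the kappa-B consensus, all searched on both strands. The stretch between Psmb9 and Tap1 is on the plus strand and holds no match to these 3. Those before Tapbp and Psmb10 hold none either and are not printed.
H2-K1, chr17:34000334-34000533, minus strand: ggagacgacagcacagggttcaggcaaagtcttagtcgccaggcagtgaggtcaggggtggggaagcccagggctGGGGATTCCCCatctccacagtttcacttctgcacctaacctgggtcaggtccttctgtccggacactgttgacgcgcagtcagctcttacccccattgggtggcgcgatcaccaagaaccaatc
H2-D1, chr17:35262894-35263093, plus strand: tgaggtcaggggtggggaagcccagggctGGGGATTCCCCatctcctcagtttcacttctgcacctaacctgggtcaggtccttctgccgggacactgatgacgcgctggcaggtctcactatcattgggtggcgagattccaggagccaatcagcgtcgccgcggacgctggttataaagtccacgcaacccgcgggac
B2m, chr2:122147487-122147686, plus strand: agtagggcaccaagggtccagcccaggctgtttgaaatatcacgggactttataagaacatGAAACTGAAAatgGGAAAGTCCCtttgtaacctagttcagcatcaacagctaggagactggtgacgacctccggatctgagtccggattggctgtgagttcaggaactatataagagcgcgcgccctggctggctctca
Psmb8, chr17:34197995-34198194, plus strand: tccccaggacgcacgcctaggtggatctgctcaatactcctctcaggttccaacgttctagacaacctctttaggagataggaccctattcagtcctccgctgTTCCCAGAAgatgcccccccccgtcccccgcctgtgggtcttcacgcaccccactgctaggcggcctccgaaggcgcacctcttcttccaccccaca
Psmb9 to Tap1, chr17:34187331-34187555, plus strand: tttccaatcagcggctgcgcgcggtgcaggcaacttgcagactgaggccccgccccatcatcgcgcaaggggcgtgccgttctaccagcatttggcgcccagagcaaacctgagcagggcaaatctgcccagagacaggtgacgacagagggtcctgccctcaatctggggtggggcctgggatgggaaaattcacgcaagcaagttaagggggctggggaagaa

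H2-K1 and H2-D1 share most of this sequence: 130 of 154 aligned bases were identical (84.4%), and both hold the same kappa-B stretch, GGGGATTCCCC, which is 2 overlapping matches. B2m holds a response element core, GAAACTGAAA, at bases -139 to -130 from the start, and a kappa-B match, GGAAAGTCCC, at -126 to -117. Psmb8 holds a gamma-activated site, TTCCCAGAA, at -97 to -89. Of 32851 promoter windows, 3.44% held the response element core, 8.3% the gamma-activated site and 8.46% the kappa-B consensus, against 1, 1 and 3 of the 8 genes with a window. The short TGACG box, part of the CRE-like element of class I promoters, was in 5 of the 8 and in 20.8% of all windows. The boxes counted for Psmb9 and for Tap1 are the same site, in the stretch between them. A match describes letters in the window and was not tested as a binding site. The patterns are strict and leave variant forms of an element unmarked. A promoter without a match, such as those of H2-K1 and H2-D1 for the response element core, may thus still hold such an element.

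Libraries held 19181208 to 30942818 estimated counts, with a median of 26091234, so that 3 counts equal 0.097 to 0.156 CPM. CPM are the estimated counts over the library total, here scaled by trimmed mean of M values. All 17 libraries carried Hand2 reads, with 21.0 to 502.5 estimated counts (median 58.0) in Hand2 mice and 2.0 to 23.5 (median 10.5) in EV mice. In these counts, which are not scaled for depth, the lowest Hand2 mouse lay below the highest EV mouse. Skeletal muscle markers (Acta1, Ckm, Myh4, Myh1, Tnnt3 and Pvalb) summed to 65990 to 82890 CPM in Hand2 mice and 68740 to 78930 CPM in EV mice. 1 library stood apart in the class I pathway. EV replicate 5, a female aged 23 months, had the highest level of the 17 mice in all 10 genes, and the estimates of the 10 genes between vectors and between sexes are given with and without it. Over all genes tested it was the highest animal in 7.83%, and the median gene was at 0.998 times the median of the other 16 mice. EV replicate 5 was singled out after its values were seen. Replicates are numbered by accession and no number links 2 mice.

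Per kilobase of transcript, B2m had the highest level of the 10 genes and Nlrc5 the lowest. The median was 142 CPM per kb for B2m in Hand2 mice and 126 CPM per kb in the 9 other EV mice. H2-K1 followed with 89.9 and 79.7 CPM per kb in the same groups, and H2-D1 with 75.9 and 70.5 CPM per kb. The ranges of H2-K1 and H2-D1 overlapped, at 68.6 to 103 and 61.8 to 88.1 CPM per kb in Hand2 mice. Tapbp was lower, with medians of 21.2 CPM per kb in Hand2 mice and 21.0 CPM per kb in the other EV mice. Psmb10 was at 10.8 and 11.6, Psmb8 at 6.65 and 5.91, and Tap2 at 6.52 and 6.58 CPM per kb in the same order of groups. The ranges of Psmb8 and Tap2 overlapped, and those of Tap1 (medians 2.79 and 2.59 CPM per kb) and Psmb9 (2.74 and 2.79 CPM per kb) did so too. Nlrc5, a long transcript, had 0.400 CPM per kb in Hand2 mice and 0.298 CPM per kb in the other EV mice. In EV replicate 5, B2m and H2-K1 were at 538 and 416 CPM per kb, and Tap1 at 26.5 CPM per kb stood above the Tap2 level of 15.6 CPM per kb. Of 50-base windows along the transcript, 14.3% for H2-D1 and 8.79% for H2-K1 also occur in other genes, so their reads can be shared between class I copies. For Tapbp, Tap1 and Tap2 the share was 2.0%, 0.861% and 0.737%, and none was found for the other 5.

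H2-K1 and H2-D1 encode the classical class I heavy chains, which present the peptide. H2-K1 ranged from 109 to 165 CPM with a median of 143 in Hand2 mice, and from 115 to 664 CPM with a median of 128 in EV mice. The 664 CPM belonged to EV replicate 5, and the highest of the other 9 EV mice had 172 CPM. The Hand2 and EV ranges overlapped, and the lowest H2-K1 level of all was in a Hand2 mouse. The log2 fold change of Hand2 over EV was -0.33 ± 0.35 (SE), and 0.12 ± 0.09 without EV replicate 5.

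H2-D1 ranged from 130 to 185 CPM with a median of 160 in Hand2 mice, and from 134 to 509 CPM with a median of 149 in EV mice. EV replicate 5 was again alone at the top, since the next EV mouse had 184 CPM. The log2 fold change was -0.21 ± 0.25 (SE), and 0.09 ± 0.08 without that mouse. The H2-K1 level over the H2-D1 level was 0.842 to 0.923 in Hand2 mice and 0.832 to 0.947 in the 9 other EV mice. In EV replicate 5 it was 1.31, the only one of 17 above 1: H2-K1 stood 5.05 times and H2-D1 3.34 times above the median of the other 16 mice.

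B2m encodes the light chain that every class I heavy chain needs. It ranged from 94.1 to 139 CPM with a median of 122 in Hand2 mice, and from 94.9 to 462 CPM with a median of 112 in EV mice. The next EV mouse after replicate 5 had 152 CPM. The log2 fold change was -0.27 ± 0.30 (SE), and 0.09 ± 0.10 without EV replicate 5. The summed heavy chains kept pace with the light chain. Per kb, H2-K1 plus H2-D1 over B2m was 1.14 to 1.24 in Hand2 mice, 1.08 to 1.23 in the other EV mice and 1.23 in EV replicate 5.

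**Figure D1:**
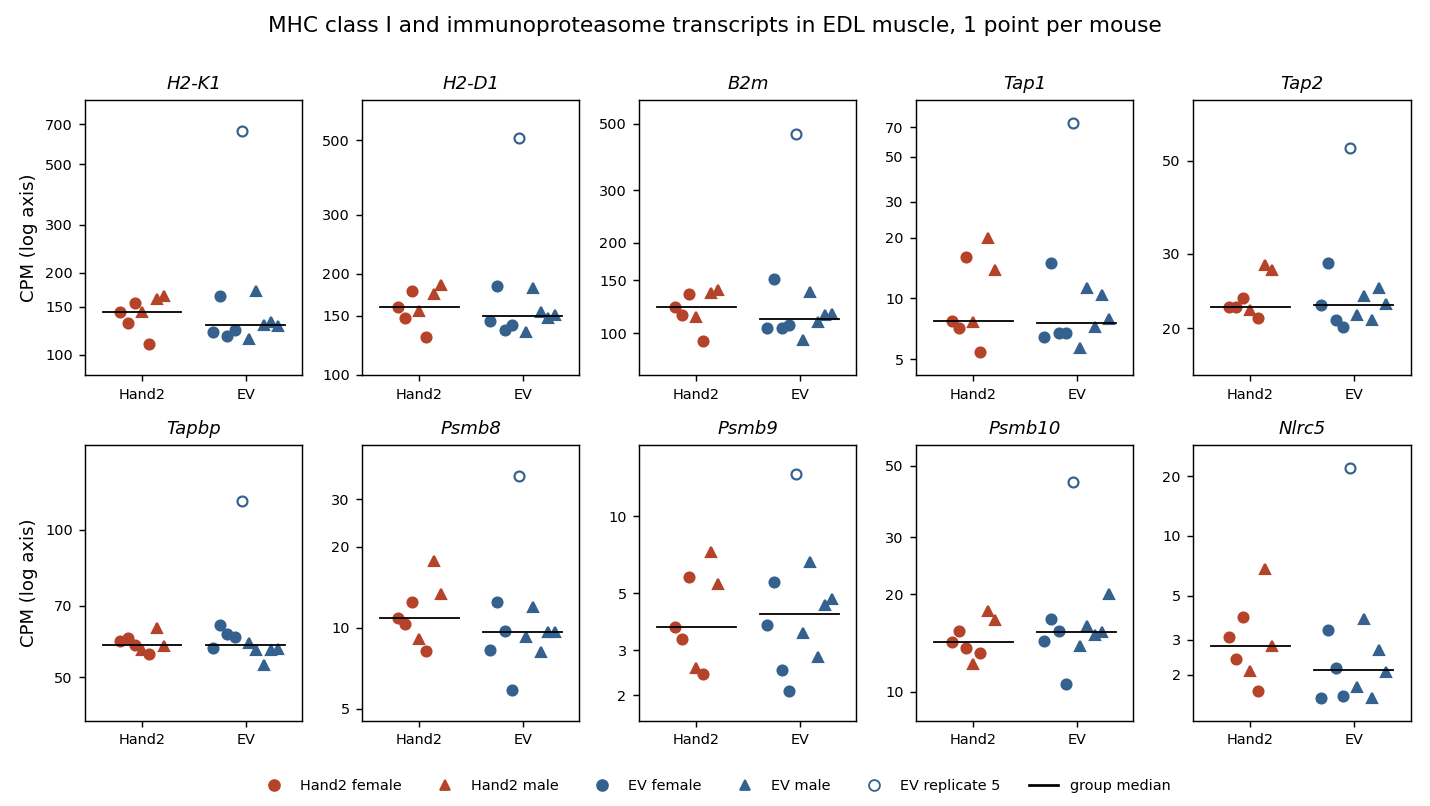
CPM of each of the 10 genes (log axis, a scale of its own per gene) in 7 Hand2 mice and 10 EV mice, 1 point per mouse, with the group median as a line. EV replicate 5 (open circle) is the highest of the 17 mice in every panel, and the other mice of both groups overlap.

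Tap1 and Tap2 encode the partner chains of the peptide transporter. Tap1 ranged from 5.44 to 19.8 CPM with a median of 7.77 in Hand2 mice, and from 5.71 to 73.7 CPM with a median of 7.55 in EV mice. After EV replicate 5, the highest levels of Tap1 were 19.8 CPM in Hand2 replicate 6, a male, 16.1 CPM in Hand2 replicate 3, a female, and 14.9 CPM in EV replicate 2, a female. Its log2 fold change was -0.33 ± 0.57 (SE), and 0.38 ± 0.28 without EV replicate 5.

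Tap2 varied far less, with 21.1 to 28.3 CPM and a median of 22.4 in Hand2 mice, and 20.1 to 53.7 CPM and a median of 22.7 in EV mice. The log2 fold change of Tap2 was -0.12 ± 0.18 (SE), and 0.07 ± 0.08 without EV replicate 5. The partner chains thus did not stand equally high in EV replicate 5, with Tap1 9.57 times and Tap2 2.38 times the median of the other 16 mice. Per kb, Tap1 over Tap2 was 0.318 to 0.866 in Hand2 mice, 0.328 to 0.647 in the other EV mice and 1.70 in EV replicate 5.

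Tapbp encodes tapasin, which bridges the transporter and the empty class I molecule. It was the steadiest of the 10, with 55.7 to 63.0 CPM and a median of 58.1 in Hand2 mice. In EV mice it ranged from 53.1 to 114 CPM with a median of 58.1, and the next mouse after EV replicate 5 had 63.9 CPM. Its log2 fold change was -0.13 ± 0.12 (SE), and 0.00 ± 0.04 with a 95% interval of -0.08 to 0.09 without EV replicate 5.

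Psmb8, Psmb9 and Psmb10 encode the catalytic subunits of the immunoproteasome, which take the places of Psmb5, Psmb6 and Psmb7. Psmb8 ranged from 8.21 to 17.8 CPM with a median of 10.8 in Hand2 mice, and from 5.87 to 36.7 CPM with a median of 9.65 in EV mice. Hand2 replicate 6 had the 17.8 CPM, and the highest EV mouse other than replicate 5 had 12.4 CPM. The log2 fold change of Psmb8 was -0.04 ± 0.32 (SE) in all mice. Without EV replicate 5 it was 0.33 ± 0.15, with an edgeR quasi-likelihood p of 0.044 and a Benjamini-Hochberg adjusted p of 0.93, so it was not called. Of the 10 genes this was the smallest p in that comparison.

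Psmb9 ranged from 2.43 to 7.28 CPM with a median of 3.70 in Hand2 mice, and from 2.07 to 14.6 CPM with a median of 4.14 in EV mice. Its log2 fold change was -0.22 ± 0.37 (SE), and 0.17 ± 0.26 without EV replicate 5. Psmb10 ranged from 12.2 to 17.8 CPM with a median of 14.2 in Hand2 mice, and from 10.6 to 44.5 CPM with a median of 15.3 in EV mice. Psmb10 was the only one of the 10 whose estimate stayed below 0 in both settings, at -0.31 ± 0.24 (SE) and at -0.03 ± 0.10 without EV replicate 5.

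The immune subunits were a small part beside their constitutive counterparts in every mouse. Per kb, Psmb8 stood at 2.77 to 6.70 per 100 of Psmb5 in Hand2 mice (median 3.86), at 2.11 to 4.16 in the other EV mice (median 3.31) and at 11.9 in EV replicate 5. Psmb9 per 100 of Psmb6 was 0.880 to 2.75 in Hand2 mice (median 1.38), 0.737 to 2.31 in the other EV mice (median 1.35) and 4.95 in EV replicate 5. Psmb10 per 100 of Psmb7 was 3.40 to 5.0 in Hand2 mice (median 4.06), 2.77 to 5.09 in the other EV mice (median 4.09) and 12.0 in EV replicate 5. The denominators were steady, since EV replicate 5 had 1.08, 1.06 and 1.02 times the median level of the other 16 mice in Psmb5, Psmb6 and Psmb7. The excess in the ratio was thus about that in the immune subunits themselves: 3.79-fold for Psmb8, 3.90-fold for Psmb9 and 2.95-fold for Psmb10.

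**Figure D2:**
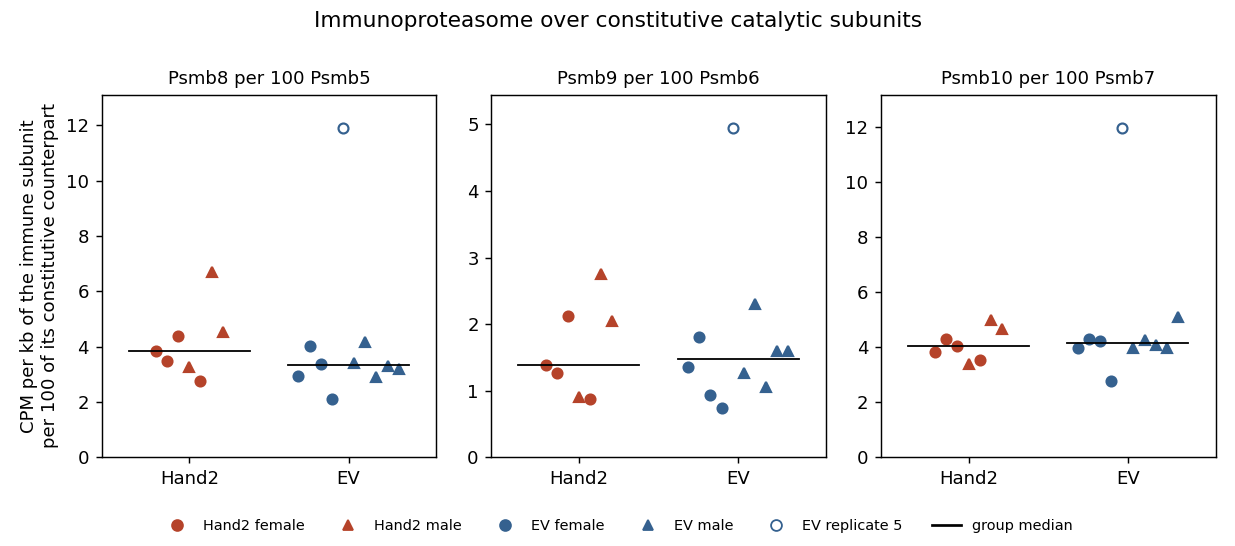
Level of each immune catalytic subunit per 100 of its constitutive counterpart (both as CPM per kb) in 7 Hand2 mice and 10 EV mice, 1 point per mouse, lines at the group medians. EV replicate 5 (open circle) is at 11.9, 4.95 and 12.0, and the other mice of both groups overlap.

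Nlrc5 encodes the factor that binds with RFX proteins at class I promoters and activates them. It had the lowest level and the widest spread, with 1.65 to 6.77 CPM and a median of 2.78 in Hand2 mice, and 1.53 to 22.0 CPM and a median of 2.11 in EV mice. Hand2 replicate 6 had the 6.77 CPM, and the highest EV mouse other than replicate 5 had 3.80 CPM. The log2 fold change of Nlrc5 was -0.29 ± 0.59 (SE) in all mice. Without EV replicate 5 it was 0.54 ± 0.27 with a 95% interval of -0.03 to 1.12 and an edgeR quasi-likelihood p of 0.062.

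Over both sexes, none of the 10 genes was called between Hand2 and EV mice by edgeR's quasi-likelihood test with Benjamini-Hochberg adjustment at 5%. Of all 13965 genes tested, 0% were called, and 705 had an unadjusted p under 0.05, among them 0 of the 10. DESeq2 called 1 gene and limma-voom 0, and neither called any of the 10, although DESeq2 gave no p for H2-K1 and Nlrc5, here or in any comparison below. All 10 estimates were below 0, with a median of -0.25 on the log2 scale against -0.00 over all genes. Without EV replicate 5, 9 were above 0 and 1 below, with a median of 0.10, and again 0% of 13899 genes were called, with 722 under the unadjusted level. Leaving out this 1 EV mouse thus turned 9 of the 10 estimates. With all mice kept, the median was -0.05 with limma-voom, where 3 of 10 estimates were above 0, -0.10 with an age term and -0.09 on the authors' normalized values. In 22-month mice, which do not include EV replicate 5, it was -0.04 with 3 of 10 above 0, and in 23-month mice, which do, -0.06 with 4 of 10 above 0. The adjusted p of the 10 genes was 0.92 to 0.99 in the quasi-likelihood test on all mice, and 0.407 to 1.0 over the alternatives tried. In whole muscle, fewer cells of a type and less RNA per cell cannot be told apart.

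**Figure D3:**
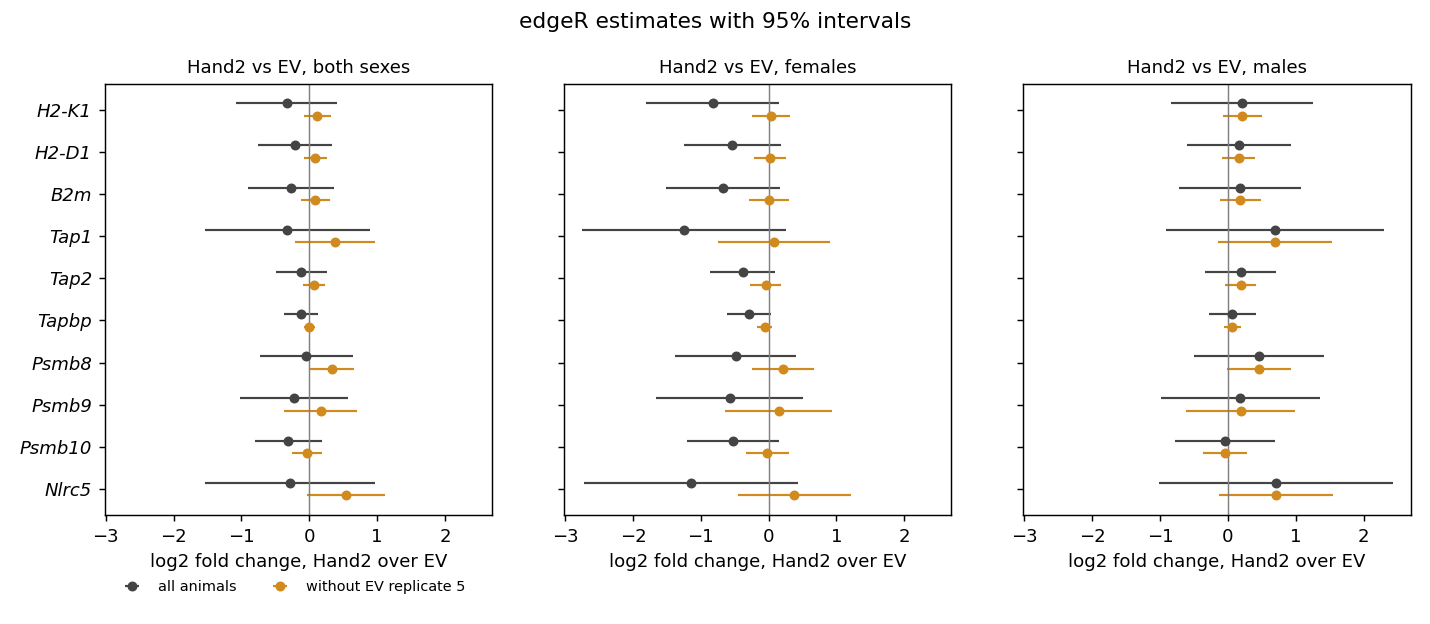
log2 fold change of Hand2 over EV with its 95% interval from edgeR for each of the 10 genes, in both sexes, females and males, with all mice (grey) and without EV replicate 5 (orange). In both sexes and in females all 10 estimates lie below 0 with all mice, and 9 and 7 of them above 0 without EV replicate 5.

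Within females, none of the 10 was called between the 4 Hand2 and 5 EV mice, against 0% of all genes tested by the same test. The unadjusted level was reached by 824 genes, DESeq2 called 7 genes and limma-voom 0. All 10 estimates were below 0, led by Tap1 at -1.25 ± 0.70, Nlrc5 at -1.14 ± 0.74 and H2-K1 at -0.82 ± 0.46 (log2, SE), with a median of -0.55. Tap1 in Hand2 females had 5.44, 7.18, 7.77 and 16.1 CPM, against 6.46, 6.73, 6.77, 14.9 and 73.7 CPM in EV females. Without the 73.7 CPM of EV replicate 5 the estimates for Tap1, Nlrc5 and H2-K1 were 0.08 ± 0.39, 0.38 ± 0.39 and 0.04 ± 0.13, 7 of 10 were above 0, and the median was 0.03.

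Within males, which do not include EV replicate 5, none of the 10 was called between the 3 Hand2 and 5 EV mice, against 0% of all genes tested. The unadjusted level was reached by 397 genes, DESeq2 called 1 gene and limma-voom 0. Here 9 estimates were above 0 and Psmb10 was at -0.04 ± 0.35, with a median of 0.19. Nlrc5 had 2.08, 2.78 and 6.77 CPM in Hand2 males, against 1.53, 1.74, 2.07, 2.66 and 3.80 CPM in EV males, so that 2 of 3 Hand2 males lay inside the EV range. Its estimate was 0.71 ± 0.81, and those of Tap1 and Psmb8 were 0.69 ± 0.75 and 0.46 ± 0.45 (log2, SE). The shared dispersion carries the spread of EV replicate 5 into these errors: without that female the same 3 estimates had SEs of 0.40, 0.39 and 0.22, and none was called.

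The difference between the sexes in the vector effect was tested directly, as male minus female. None of the 10 was called, against 0% of all genes, with 474 genes under the unadjusted level, and DESeq2 and limma-voom called none of the 10 either. The unadjusted level was reached by 0 of the 10 with edgeR and limma-voom and by 1, Tap1, with DESeq2, which gave no p for H2-K1 and Nlrc5. All 10 differences were above 0, with a median of 0.81, and the largest was Tap1 at 1.94 ± 1.02 (log2, SE; edgeR quasi-likelihood p = 0.078). Without EV replicate 5 it was 0.61 ± 0.55, the median of the 10 was 0.18 with 9 above 0, none was called, and 453 genes were under the unadjusted level.

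Males and females were compared over both vectors. None of the 10 was called, while 5.63% of all genes were, 786 in all. Calls in other genes do not tell how small a change could have been called in the 10. DESeq2 and limma-voom called none of the 10 either, and with each tool 0 of them reached the unadjusted level, but DESeq2 again gave no p for H2-K1 and Nlrc5. All 10 estimates of male over female were below 0, with a median of -0.23, and the smallest edgeR quasi-likelihood p was 0.118, for Tapbp at -0.19 ± 0.12 (log2, SE). Without EV replicate 5, 9 were above 0 and 1 below, with a median of 0.13, and none was called against 4.36% of all genes. Ages were 22 and 23 months, and with age as a further term and all mice kept edgeR called none of the 10 between the vectors.

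The excess in EV replicate 5 differed widely from gene to gene. Nlrc5 was at 9.66 times and Tap1 at 9.57 times the median of the other 16 mice. H2-K1 was at 5.05, B2m at 4.03, Psmb9 at 3.90, Psmb8 at 3.79, H2-D1 at 3.34, Psmb10 at 2.95, Tap2 at 2.38 and Tapbp at 1.97 times that median. The excess was more than 2-fold in 9 of the 10, against 3.76% of all genes tested. The genes with the greater excess tended to vary more among the other 16 mice. The SD of log2 CPM there was 0.59 for Nlrc5, 0.57 for Tap1, 0.55 for Psmb9 and 0.36 for Psmb8, against 0.21 for H2-K1, 0.16 for Tap2 and 0.07 for Tapbp. Over the 10 genes, which share these libraries, Spearman's rho between excess and SD was 0.78 and Pearson's r (log2 excess) 0.81.

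**Figure D4:**
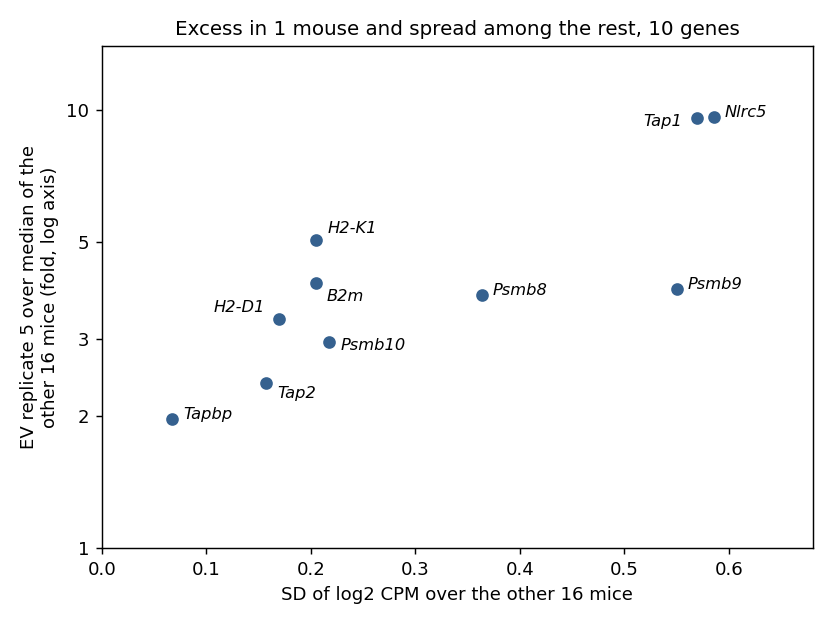
Level in EV replicate 5 over the median of the other 16 mice (log axis) against the SD of log2 CPM among those 16 mice, 1 point per gene. Nlrc5 and Tap1 are at the upper right, with 9.66-fold and 9.57-fold excess, and Tapbp at the lower left with 1.97-fold.

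Among the other 16 mice, Hand2 replicate 6, a male aged 23 months, had the highest Tap1, Psmb8, Psmb9 and Nlrc5. Over all genes tested it was the highest of the 16 in 5.96%. It stood at 2.57 times the median of the 16 in Tap1, 1.83 times in Psmb8, 1.95 times in Psmb9 and 2.98 times in Nlrc5. It was not the highest in the other 6 genes, of which EV replicate 2 led B2m, Tap2 and Tapbp. Hand2 replicate 5, a female aged 23 months, had the lowest H2-K1, H2-D1, B2m and Tap1 of all 17 mice, at 109, 130, 94.1 and 5.44 CPM.

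The 10 genes moved together across mice, most closely the class I chains. Over 17 mice the 45 pairs had Pearson's r of 0.679 to 0.997 with a median of 0.91, a figure that EV replicate 5 raises. Over the other 16 mice r ranged from 0.154 to 0.977 with a median of 0.764, and 32 of 45 pairs were above 0.5. The closest pair over the 16 was H2-K1 with H2-D1, at 0.977, and some of their 50-base windows are the same (6.94% of those of H2-K1). Tapbp and Psmb10 stood aside, with median r to the other members of 0.395 and 0.461, against 0.866 for Tap1. With Hand2 replicate 6 also left out, the median r was 0.213 for Tapbp, 0.368 for Psmb10 and 0.825 for Tap1, the lowest pair was at 0.019, and the median over the 45 pairs was 0.762. These are descriptions over mice that share vector and sex groups.

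**Figure D5:**
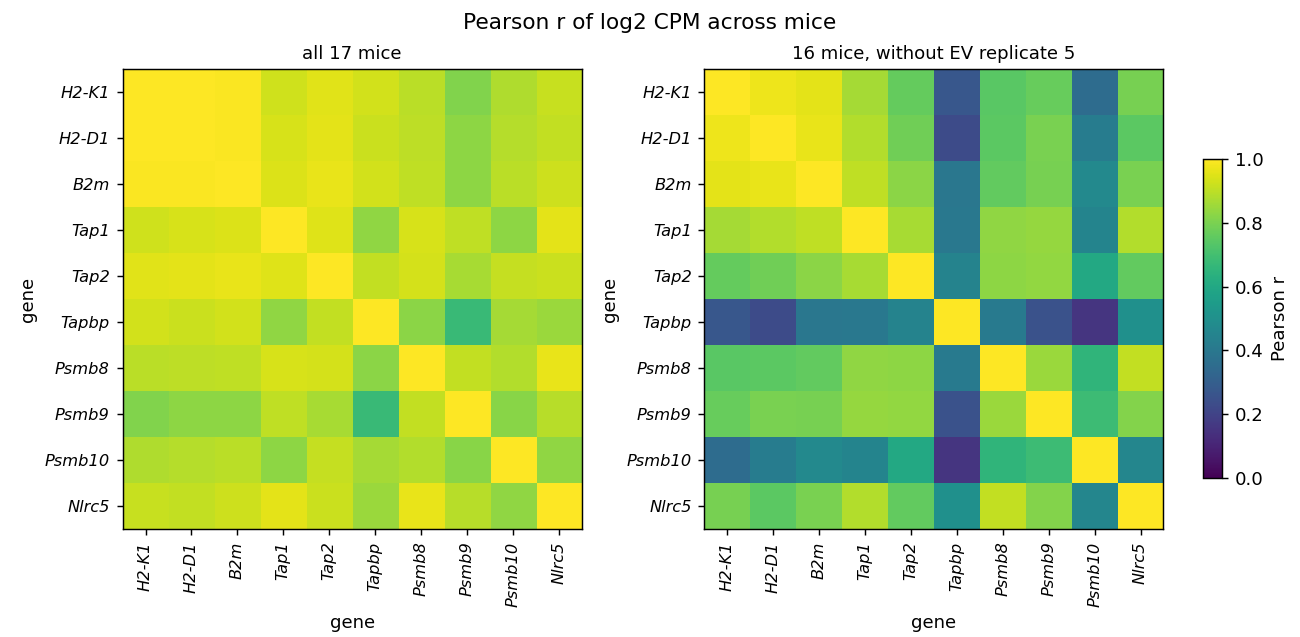
Pearson's r of log2 CPM between each pair of the 10 genes, over all 17 mice (left) and over the 16 mice without EV replicate 5 (right), on a colour scale of 0 to 1. Without that mouse the rows of Tapbp and Psmb10 are darker, with median r of 0.395 and 0.461.

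The genes most like the 10, by Pearson's r to the mean of their z-scored log2 CPM, included interferon-induced genes and further class I genes. Over 17 mice the 8 closest included Iigp1 (0.982), Igtp (0.966), Parp10 (0.965), Gbp2 (0.961), Gm12185 (0.961), Irgm2 (0.955) and H2-Q4 (0.953). Over the 16 mice without EV replicate 5 they were Gm4070 (0.955), H2-Q7 (0.936), Tgtp1 (0.907), Iigp1 (0.907), Gbp3 (0.905), Gbp4 (0.904), H2-Q6 (0.903) and Gm17757 (0.899). Iigp1, an interferon-induced GTPase of pathogen defence, is in both lists. It had 711 CPM in EV replicate 5, against a median of 10.7 CPM and a highest value of 47.9 CPM (Hand2 replicate 6) in the other 16 mice.

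In interferon signalling, several transcription factor genes were high in EV replicate 5, while the receptor and kinase genes were all under 2-fold. Of 15 tested genes of interferon signalling, 6 were above 2-fold, among them Irf7 at 6.44, Irf9 at 4.78, Stat2 at 3.70, Irf8 at 2.36 and Irf1 at 2.28 times the median of the other 16. The receptor genes Ifngr1, Ifngr2, Ifnar1 and Ifnar2 were at 1.14, 0.719, 0.998 and 0.844 times, and the kinase genes Jak1, Jak2 and Tyk2 at 1.07, 0.803 and 1.35 times. Of the same list, the transcription factor gene Irf2 was at 1.04 times and Socs1 at 0.953 times. Interferon transcripts themselves were at the floor of detection. Ifng had 6 estimated counts over the 7 Hand2 mice and 2 over the 10 EV mice, both in EV replicate 5, and Ifnb1 had 0 and 1. All 30 listed interferon-induced GTPase and antiviral genes were above 2-fold in EV replicate 5, with a median of 6.68, against the 3.76% of all genes. EV replicate 5 was the highest of all mice in 28 of these 30, the exceptions being Tgtp1 and Cxcl10. Tgtp1 was at 29.74 CPM there and at 29.96 CPM in Hand2 replicate 6. Cxcl10 was at 6.537 CPM there, below EV replicate 4 (10.18 CPM) and EV replicate 3 (6.669 CPM). Of the listed genes outside the 10, those named for their level in EV replicate 5 were partly chosen after their values were seen.

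Among the other genes of the pathway, the excess in EV replicate 5 was not shared by all. Of 14 tested class I relatives, 8 were above 2-fold in EV replicate 5, such as H2-Q6 at 3.50, H2-Q7 at 3.42 and H2-Q4 at 2.56, while Fcgrt, the neonatal Fc receptor, was at 0.967. Of 9 proteasome activator and assembly genes only Psme2, a PA28 subunit, was above 2-fold, at 2.12, with its partner Psme1 at 1.76. Of 5 loading partners only the tapasin relative Tapbpl was, at 2.22, while the chaperone genes Calr, Canx and Pdia3 were at 1.04, 1.1 and 0.979. Erap1, which trims peptides in the endoplasmic reticulum, was the highest of 7 trimming genes at 1.68. The 11 alpha and other beta subunits of the proteasome were at 1.0 to 1.11 times, and the 10 partners in class I transcription, among them Rfx5 and Nfya, held none above 2-fold. Of 7 tested class II genes, which serve the neighbouring pathway of antigen presentation, 4 were above 2-fold.

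None of the genes in these lists was called between Hand2 and EV mice by edgeR's quasi-likelihood test over both sexes, as for 0% of all genes. Of the 30 interferon-induced genes 3 estimates were above 0 and 27 below, with a median of -0.42. Without EV replicate 5 the counts were 23 and 7, with a median of 0.11. Irgm2, a GTPase of the same family as Iigp1, was at -1.34 ± 0.90 (log2, SE), and at 0.08 ± 0.19 without EV replicate 5. Over both sexes, estimates for the proteasome core were mostly below 0 with and without EV replicate 5, and none was called. The 3 constitutive subunits were all below 0 (Psmb6 at -0.08 ± 0.03, Psmb7 at -0.06 ± 0.03 and Psmb5 at -0.03 ± 0.04). Of the 11 other core subunits 10 were below 0 with a median of -0.03. Within each sex, 6 of these 11 were above 0 in females, with and without EV replicate 5, and 0 in males. The direct test of the difference between the sexes in the vector effect called none of the 11. Of 14 class I relatives 6 were above 0 and 8 below, or 11 and 3 without EV replicate 5.

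Markers of lymphocytes were low in all 17 muscles, and EV replicate 5 was high in some immune marker lists and low in others. CD8 T cell markers summed to 1.34 to 2.20 CPM (median 1.69) in Hand2 mice and to 0.870 to 2.89 CPM (median 1.88) in the 9 other EV mice. EV replicate 5 had 2.66 CPM, the second of 17, and Trac was at 0 in every mouse. The members went opposite ways in EV replicate 5. Cd3d, at 1.42 CPM, was at 3.75 times the median of the other 16 mice, and Cd8a, at 0.782 CPM, at 0.754 times. Markers of natural killer and cytotoxic cells summed to 0.141 to 2.04 CPM in Hand2 mice and 0.193 to 0.981 in the other EV mice. EV replicate 5 had 1.99 CPM, the second of 17. Its Nkg7 (1.03 CPM) and Gzmb (0.426 CPM) were the highest of 17, at 6.49 and 5.43 times the median of the other 16 mice. Gzma, at 0.391 CPM, was at 3.29 times that median. Ncr1 and Klrb1c were each at 0.071 CPM there, and Prf1 was at 0. The leukocyte marker Ptprc was at 2.08 to 6.35 CPM in Hand2 mice, at 2.02 to 4.82 CPM in the other EV mice and at 5.15 CPM in EV replicate 5. Neutrophil markers summed to 2.36 to 20.1 CPM in Hand2 mice and 2.24 to 10.8 CPM in the other EV mice, with 12.6 CPM in EV replicate 5 and Ly6g at 0 in all. A row at 0 in all 17 mice, as for Trac and Ly6g, does not tell an absent transcript from one that was not counted.

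B cell markers were at their lowest of all 17 mice in EV replicate 5, at 0.320 CPM with Cd79a and Ms4a1 at 0, against 0.458 to 6.54 CPM in Hand2 mice and 0.744 to 2.40 CPM in the other EV mice. Macrophage markers summed to 68.7 to 108 CPM in Hand2 mice, 44.9 to 126 CPM in the other EV mice and 99.4 CPM in EV replicate 5, the fifth of 17. Of these, Cd68 and C1qb were the highest of 17 there, at 1.71 and 1.6 times the median of the other 16 mice. Csf1r was at 0.629 times that median. Dendritic, endothelial and fibro-adipogenic markers placed EV replicate 5 at ranks 13, 14 and 15, skeletal muscle markers at rank 12 and red blood cell markers at rank 4. A sum follows its most abundant genes. Of the fibro-adipogenic markers, Ly6a was the highest of 17 in EV replicate 5, at 2.06 times the median of the other 16 mice. Pdgfra, Dcn and Col1a1 were at 0.794, 0.694 and 0.45 times. Hand2 replicate 6 had the highest sums of the 17 mice for B cell (6.54 CPM), neutrophil (20.1 CPM) and natural killer and cytotoxic markers (2.04 CPM). It was also the highest for Ptprc (6.35 CPM) and skeletal muscle markers (82890 CPM), with macrophage markers of 68.7 CPM. Its red blood cell markers summed to 2022 CPM, below only EV replicate 4 at 2127 CPM. The part of these cells in the class I levels was not tested.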

How the data were processed

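Libraries from EDL muscle of 17 mice were prepared with Illumina TruSeq v2, per the labels' protocols. The authors used the mm10 build, per the submitters' processing notes. The file headers name a re-alignment to RefSeq. Neither the labels, the notes nor the headers name the aligner, the counter or a strand setting. The authors' deposited table holds estimated counts, not scaled for depth (27.3% of values above 0 are whole within 0.001), and normalized log2 values deposited by the authors.

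Samples were grouped by the vector in their labels. Estimated counts were rounded, filtered with filterByExpr, scaled by trimmed mean of M values and tested by edgeR's robust quasi-likelihood (version 4.0.16 in R 4.3.3), with vector and sex as terms or with 4 groups by vector and sex. Adjustment of p-values was by Benjamini-Hochberg over all genes tested, and the SE is the log2 fold change over the square root of F. DESeq2 1.42.0, limma-voom 3.58.1, other scalings, no filter, an age term, 1 age only, and leaving out each mouse were alternatives. Intervals are 95%. Nothing in the labels tells whether mice shared a litter or cage. Lengths are from GENCODE transcripts and promoters from RefSeq. Libraries carried no molecular identifiers, so floors cover counting error only.

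All members were named whatever their values. From other lists up to 4 genes by smallest p, the constitutive counterparts and the 8 genes most like the members were named, and others are marked as chosen later. 1 gene that the rule names is not reported here. The members and lists were chosen with earlier results of these data known.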

Additional observations from a re-analysis of the deposited data

Results flagged for a closer look

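EV replicate 5 lay far from the other EV mice in all 10 genes. Its gap to the next mouse, as a share of the range of the 10 EV mice, was 0.896 for H2-K1, 0.867 for H2-D1, 0.845 for B2m, 0.864 for Tap1, 0.748 for Tap2, 0.824 for Tapbp, 0.788 for Psmb8, 0.634 for Psmb9, 0.721 for Psmb10 and 0.889 for Nlrc5. Within the 5 EV females the share was 0.915 for H2-K1, 0.871 for H2-D1, 0.865 for B2m, 0.874 for Tap1, 0.748 for Tap2, 0.888 for Tapbp, 0.788 for Psmb8, 0.723 for Psmb9, 0.818 for Psmb10 and 0.911 for Nlrc5. All 20 were above Dixon's 95% critical value for the group size. Chance puts about 1 in 20 groups above it, and the 20 values rest on 1 mouse and on genes that move together. None of the 10 genes had such a mouse among the EV males, the Hand2 mice or the Hand2 females. Some came near it. Nlrc5 in Hand2 mice, with Hand2 replicate 6 farthest, was at 0.562 against a critical value of 0.568. H2-K1 in EV males was at 0.696 against 0.71. The Hand2 males were not tested as a group of their own. The cause of the excess was not tested.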

How the results depend on the processing

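None of the 10 genes was called in any comparison under any alternative run, but DESeq2 gave no p for H2-K1 and Nlrc5. Genes called over the whole table numbered 1 with DESeq2 over both sexes, 7 in females, 1 in males and 1271 between males and females, against 0, 0, 0 and 786 with edgeR. Leaving out 1 mouse gave 0 to 1, 0 to 1, 0 to 2 and 476 (without EV replicate 7) to 952.

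Leaving out each mouse, the median of the 10 log2 fold changes of Hand2 over EV ranged from -0.36 to 0.105 over both sexes and from -0.736 to 0.031 in females. The median difference of male minus female effects ranged from 0.177 to 1.01, and the median of male over female from -0.321 to 0.134. The ends 0.105, 0.031, 0.177 and 0.134 are those without EV replicate 5. Over both sexes the ranges were -0.412 to 0.12 for H2-K1, -0.277 to 0.089 for H2-D1, -0.346 to 0.088 for B2m, -0.603 to 0.382 for Tap1, -0.183 to 0.07 for Tap2, -0.17 to 0.002 for Tapbp, -0.21 to 0.333 for Psmb8, -0.416 to 0.169 for Psmb9 and -0.70 to 0.543 for Nlrc5. In females they were -0.994 to 0.037 for H2-K1, -0.668 to 0.025 for H2-D1, -0.825 to 0.000 for B2m, -1.67 to 0.079 for Tap1, -0.68 to 0.21 for Psmb8, -0.85 to 0.152 for Psmb9 and -1.39 to 0.378 for Nlrc5. In males they were -0.17 to 0.514 for Psmb9 and -0.156 to 0.107 for Psmb10, both set by Hand2 replicates 6 and 4. For male over female H2-K1 ranged from -0.468 to 0.114.

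Other settings turned uncalled estimates over both sexes. With voom, Tap1 was 0.054, Psmb8 0.132 and Nlrc5 0.193, and Psmb9 in females 0.002. With an age term Psmb8 was 0.083 and Nlrc5 0.084, and on the authors' normalized values 0.099 and 0.101. In 22-month mice H2-K1 was 0.051, Psmb8 0.053 and Nlrc5 0.264. In 23-month mice Tap1 was 0.118, Tap2 0.003, Psmb8 0.146 and Nlrc5 0.093. The cause was not tested. No paired analysis was possible because replicate numbers come from accession order.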
